A study of Mus musculus with 11 samples.

Results

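The genes described here are the 9 enzymes and receptors at the core of the endocannabinoid system, taken by symbol from the table of heart transcripts: Mgll, Abhd6, Abhd12 and Faah, which break endocannabinoids down, Dagla, Daglb and Napepld, which make them, and the receptor genes Cnr1 and Cnr2. All 9 were among the 22608 genes of the table. They were measured by RNA-seq in ventricles of 11 male mice aged 8 to 16 weeks on a C57BL/6J background. CD mice lack, in every cell, the region of chromosome 5 that matches the human Williams–Beuren syndrome (WBS) critical region on 1 of the 2 copies, and WT mice are their littermates without the deletion. Of the WT mice, 2 were given vehicle (WT VEH) and 3 were given JZL184 (WT JZL184), and of the CD mice, 3 were given vehicle (CD VEH) and 3 were given JZL184 (CD JZL184). JZL184 was injected daily at 8 mg/kg for 10 days, diluted in a mixture of dimethyl sulfoxide, polyethylene glycol, Tween and saline. The study's methods do not spell out the composition of the vehicle. The treatment field of the labels calls the vehicle mice untreated, whereas their titles and the study's methods give vehicle.

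Endocannabinoids are lipid messengers that are made on demand from membrane lipids and act mainly on 2 G protein-coupled receptors, CB1R (Cnr1) and CB2R (Cnr2). The messenger 2-arachidonoylglycerol (2-AG) is made by the diacylglycerol lipases (Dagla, Daglb) and is broken down mostly by monoacylglycerol lipase (Mgll), with smaller parts taken by the serine hydrolases Abhd6 and Abhd12. The messenger anandamide can be released by the phospholipase Napepld and is broken down by fatty acid amide hydrolase (Faah). JZL184 blocks the monoacylglycerol lipase protein covalently, so transcript levels do not read out the activity that the drug removes.

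Mgll and Napepld were the members that passed the test across all genes in the comparisons of groups, in opposite directions, and the stretches upstream of their annotated start sites are therefore shown. RefSeq promoter windows on GRCm38.p6 were at hand for 7 of the 9 genes, with 12 windows in all, and the 250 bases before the start site are printed 5′ to 3′ on the strand of the gene. The Mgll window is chr6:88724162-88724411 on the + strand, the first of 2 Mgll start sites in the table, and the Napepld window is chr5:21701623-21701872 on the - strand. The Mgll window ends directly before the gene position given below. For Napepld that position, from another annotation, begins at chr5:21701396 on the - strand, so the RefSeq window does not adjoin it. Capitals mark the only match in either window to the motifs searched on both strands.
Mgll: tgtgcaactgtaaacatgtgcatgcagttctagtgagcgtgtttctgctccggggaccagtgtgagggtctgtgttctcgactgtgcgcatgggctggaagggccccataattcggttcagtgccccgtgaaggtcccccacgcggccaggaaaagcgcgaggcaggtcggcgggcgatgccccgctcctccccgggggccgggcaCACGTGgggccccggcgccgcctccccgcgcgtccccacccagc
Napepld: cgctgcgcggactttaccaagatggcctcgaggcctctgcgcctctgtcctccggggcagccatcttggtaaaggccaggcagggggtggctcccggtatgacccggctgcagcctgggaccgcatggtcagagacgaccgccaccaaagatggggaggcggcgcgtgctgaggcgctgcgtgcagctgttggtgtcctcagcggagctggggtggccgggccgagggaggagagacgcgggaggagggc
The motifs searched were the TATA box, spelled TATAAA and found in 12.4% of the 32851 windows of the same length over all genes, the CCAAT box, spelled as its name says and found in 33.8%, and the GC box, spelled GGGCGG and found in 32.7%. The other two were the E-box, spelled CACGTG and found in 6.02% of all windows, and the half-site of nuclear receptors, spelled AGGTCA and found in 14.0%. The capitals in the Mgll window are the E-box, the only motif in either window, so no motifs overlap there. G and C make up 68% of the Mgll window and 69.6% of the Napepld window, against a median of 52.4% over all windows. An exon of Gm26588, a gene annotated on the strand opposite to Mgll, covers all 250 bases of the Mgll window.

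Total estimated counts were 69660232 to 92251443 per mouse, and 3 counts, taken as the smallest level that can be told from 0, were worth 0.0308 to 0.0429 CPM (each gene's count relative to the TMM-scaled size of its library). Mitochondrially encoded genes made up 36.4% to 46.6% of each library. Of 20 genes of the deleted interval, 14 were tested and all 14 had lower values in each CD mouse than in any WT mouse of the same treatment, with a median log2 fold-change of -1.01 in vehicle mice and -0.91 in JZL184 mice. Of the members, Daglb and Napepld lie on chromosome 5, but outside this interval. The labels give the tissue as heart and its source as ventricle, whereas the sequencing methods name only the heart. The summed level of the cardiomyocyte genes Myh6, Tnnt2, Actn2, Ryr2 and Pln was 17902 to 28857 CPM. Of 4 atrial genes, Sln, Myl7 and Myl4 reached at most 0.186, 0.515 and 1.67 CPM, and Nppa, which ventricles can also express, was at 49.1 to 217 CPM. In CD VEH mouse A, the red blood cell genes Hba-a1, Hbb-bs and Alas2 summed to 11777 CPM, against 886 to 3297 CPM in the other 10 mice.

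The levels of the 9 mRNAs per length of exon spanned about 4 orders of magnitude. Mgll was the most abundant at 27.8 ± 6.06 CPM per kb (mean ± SD over 11 mice). Abhd12 was next at 10.7 ± 0.423 CPM per kb and Abhd6 followed at 2.45 ± 0.277 CPM per kb. The 3 hydrolases of 2-AG were thus above all enzymes of synthesis. Napepld was at 1.33 ± 0.155 CPM per kb, Daglb at 0.785 ± 0.0586 CPM per kb and Dagla at 0.658 ± 0.0778 CPM per kb. The ranges of Daglb and Dagla over the 11 mice overlapped, although within each mouse Daglb was above Dagla. No other neighbours in the order overlapped. The lowest levels were those of Cnr2 (0.209 ± 0.0719 CPM per kb), Faah (0.0286 ± 0.00931 CPM per kb) and Cnr1 (0.00298 ± 0.00203 CPM per kb). With the longest transcript in place of all exons, Daglb came to 1.54 CPM per kb and stood above Napepld at 1.33 CPM per kb, with overlapping ranges.

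**Figure D1:**
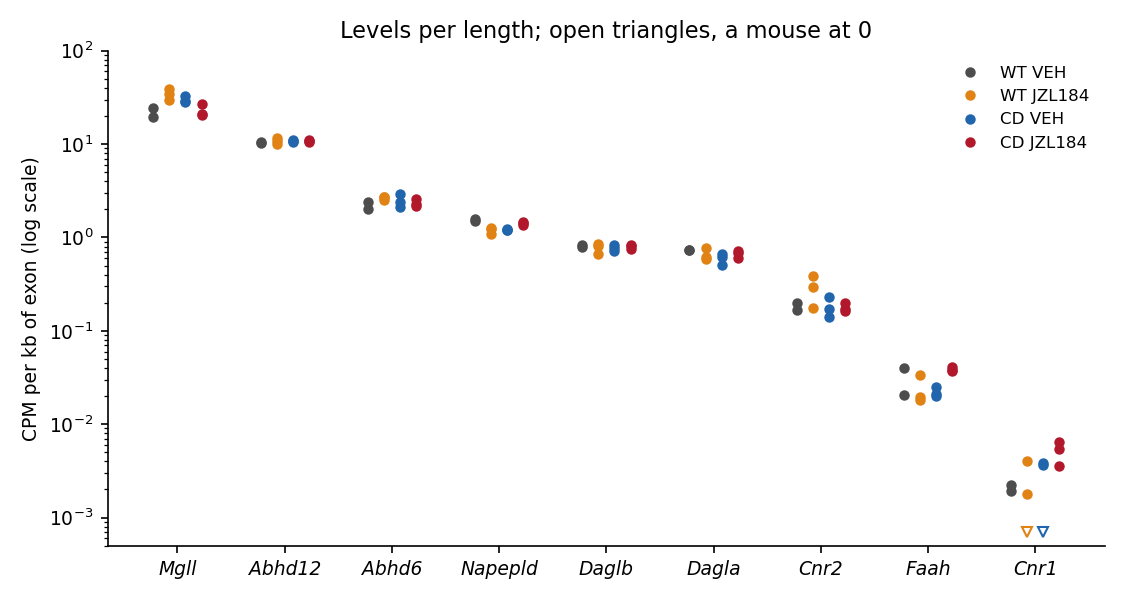
Level of each gene in CPM per kb of exon (vertical axis, log scale), ordered by the mean over 11 mice, with 1 point per mouse coloured by group; open triangles mark mice with 0 counts. Mgll is at the top with 19.6 to 38.5 CPM per kb, and Cnr1 is at the bottom with 0 to 0.00637 CPM per kb.

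Mgll mRNA (ENSMUSG00000033174.17, chr6:88724412-88828360, + strand) was higher in CD than in WT mice under vehicle and lower in CD than in WT mice under JZL184. The 2 WT VEH mice had 99.6 and 123 CPM, and the CD VEH mice had 144, 148 and 166 CPM. It reached 151, 176 and 195 CPM in the WT JZL184 mice, and it was at 104, 107 and 136 CPM in the CD JZL184 mice. All WT JZL184 and CD VEH mice were thus above all WT VEH and CD JZL184 mice. Groups that do not overlap were common, as 63.6% of all tested genes had them between the genotypes under vehicle and 48.0% between the genotypes under JZL184, and 54.2% had them between the WT groups and 54.7% between the CD groups. The group means were 112 ± 16.8 CPM in WT VEH (SD, n = 2), 174 ± 22.4 CPM in WT JZL184 (n = 3), 152 ± 11.5 CPM in CD VEH (n = 3) and 116 ± 17.5 CPM in CD JZL184 (n = 3). In bulk tissue such as this, fewer cells of a type and less RNA per cell cannot be told apart.

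The comparison of CD VEH with WT VEH asks what the deletion changes without the drug, and Mgll was higher in CD VEH with a log2 fold-change of 0.44 ± 0.14 (SE), which is 1.36-fold (edgeR quasi-likelihood test, adjusted p = 0.033). Leaving out any of the 5 mice ended this call (CD VEH A, C or E, WT VEH C or D), with log2 fold-changes between 0.31 and 0.60 and adjusted p between 0.0537 and 0.253. In WT mice, Mgll was higher with JZL184 than with vehicle by a log2 fold-change of 0.65 ± 0.14, or 1.57-fold (edgeR adjusted p = 0.00793), and the call was lost without WT VEH mouse C (0.51, adjusted p = 0.0913). In CD mice, Mgll was lower with JZL184 than with vehicle by a log2 fold-change of -0.40 ± 0.12 (edgeR adjusted p = 0.0278). Without CD JZL184 mouse A or E, or without CD VEH mouse A, C or E, this call was lost at -0.43 to -0.33 with adjusted p of 0.0546 to 0.102.

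The response of Mgll to JZL184 therefore went up in WT and down in CD mice, and the difference between the 2 responses was tested directly. It was -1.05 ± 0.19 on the log2 scale (edgeR interaction, adjusted p = 0.000927) and kept its sign and its call under all 18 alternatives. Between the treated groups, Mgll was lower in CD JZL184 than in WT JZL184 by a log2 fold-change of -0.61 ± 0.12 (edgeR adjusted p = 0.00356), a call kept under all 14 alternatives. CD JZL184 and WT VEH mice overlapped, and their difference of 0.04 had a 95% interval from -0.26 to 0.35 (edgeR adjusted p = 0.942). In the annotation, 14 exon entries of Mgll overlap exons of the antisense gene Gm26588, which has no row in the table. An exon shared by several of the 10 Mgll transcripts counts once for each, so the distinct exons can be fewer. Without a stated strand setting, reads of Gm26588 could be counted with Mgll.

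Napepld (ENSMUSG00000044968.16, chr5:21662901-21701396, - strand), the phospholipase that can release N-acylethanolamines such as anandamide, showed the reverse order of groups at a far lower level. It was at 5.98 and 6.30 CPM in WT VEH, at 4.36, 4.91 and 4.96 CPM in WT JZL184, at 4.72, 4.78 and 4.92 CPM in CD VEH and at 5.36, 5.60 and 5.85 CPM in CD JZL184. Both WT VEH mice were above all other mice, and all CD JZL184 mice were above all CD VEH and WT JZL184 mice. Separate groups were as common among all tested genes as given for Mgll (48.0% to 63.6%), and 36.4% of them had no overlap in CD JZL184 against WT VEH. The group means were 6.14 ± 0.226 CPM in WT VEH (SD, n = 2), 4.74 ± 0.333 CPM in WT JZL184 (n = 3), 4.81 ± 0.103 CPM in CD VEH (n = 3) and 5.60 ± 0.246 CPM in CD JZL184 (n = 3).

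Napepld was lower in CD VEH than in WT VEH by a log2 fold-change of -0.36 ± 0.09, a ratio of 0.779 (edgeR adjusted p = 0.0127), and lower in WT JZL184 than in WT VEH by -0.37 ± 0.09, a ratio of 0.776 (edgeR adjusted p = 0.0121). Both calls rest on the 2 WT VEH mice: without mouse C the adjusted p was 0.0694 and 0.0671, and without mouse D it was 0.0852 and 0.0846. In CD mice the value with JZL184 was 0.22 ± 0.08 above that with vehicle on the log2 scale, which did not pass the threshold (edgeR adjusted p = 0.0523). Between the treated groups, Napepld was higher in CD JZL184 than in WT JZL184 by 0.22 ± 0.08 (edgeR adjusted p = 0.044). This call was lost under 8 of 14 alternatives, among them those without CD JZL184 mouse A, C or E or WT JZL184 mouse B (0.17 to 0.26, adjusted p 0.0517 to 0.146). The difference of the JZL184 response between CD and WT mice was 0.59 ± 0.12 (edgeR adjusted p = 0.00199), and it passed under all 18 alternatives. CD JZL184 mice were below both WT VEH mice with a difference of -0.14 and a 95% interval from -0.34 to 0.05 (edgeR adjusted p = 0.648).

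**Figure D2:**
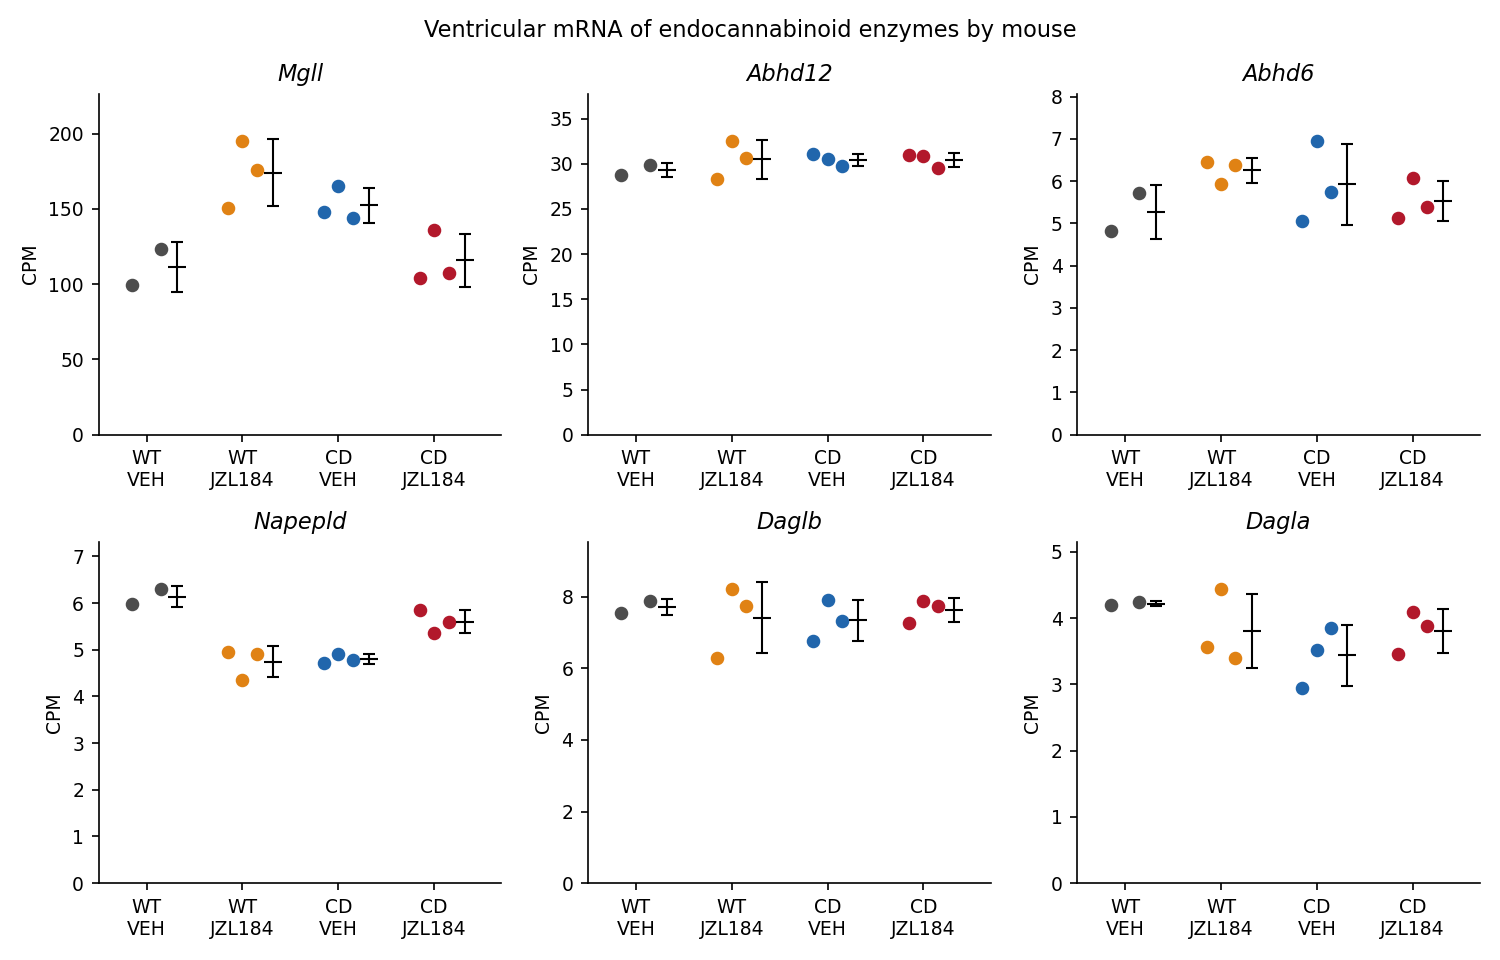
Levels in CPM (vertical axes, from 0) of the 6 tested genes in each mouse (points), with the mean and SD of each group (dash and bar). Mgll is highest in WT JZL184 (151 to 195 CPM) and CD VEH (144 to 166 CPM), Napepld is lowest in those groups, and Abhd12 is between 28.3 and 32.6 CPM in all mice.

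The diacylglycerol lipases, which produce 2-AG, did not pass the test in any comparison. Dagla (ENSMUSG00000035735.10, chr19:10245265-10304877, - strand), the main source of 2-AG at synapses, was at 4.19 and 4.25 CPM in WT VEH. It was at 3.40, 3.56 and 4.44 CPM in WT JZL184, at 2.95, 3.52 and 3.85 CPM in CD VEH and at 3.45, 3.88 and 4.10 CPM in CD JZL184. Both WT VEH mice were above all CD mice, and WT JZL184 mice lay on both sides of them. Of all tested genes, 63.6% had groups that did not overlap between CD VEH and WT VEH, and 36.4% between CD JZL184 and WT VEH. The largest difference of Dagla was that of CD VEH from WT VEH, with a log2 fold-change of -0.30 ± 0.15 and a 95% interval from -0.62 to 0.02 (edgeR adjusted p = 0.131). Daglb (ENSMUSG00000039206.13, chr5:143464584-143505942, + strand), the diacylglycerol lipase of many non-neuronal cells, was between 6.30 and 8.21 CPM in all mice, and its groups overlapped in every comparison. Its differences lay between -0.08 and 0.05 on the log2 scale with an adjusted p of at least 0.614 in the 5 comparisons of groups. One exon of Daglb overlaps an exon of Rac1 on the other strand, which is also in the table.

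The serine hydrolases Abhd6 and Abhd12 also did not pass in any comparison. Abhd6 (ENSMUSG00000025277.13, chr14:8002902-8056763, + strand), which acts on 2-AG at membranes, was at 4.82 and 5.73 CPM in WT VEH. It was at 5.92, 6.37 and 6.46 CPM in WT JZL184, at 5.06, 5.73 and 6.96 CPM in CD VEH and at 5.14, 5.39 and 6.07 CPM in CD JZL184. The WT JZL184 mice were above both WT VEH mice, as groups did not overlap for 54.2% of all tested genes in that comparison, with a log2 fold-change of 0.25 ± 0.13 and a 95% interval from -0.04 to 0.54 (edgeR adjusted p = 0.167), and the other groups overlapped. The difference of its JZL184 response between CD and WT mice was -0.35 ± 0.18 (edgeR adjusted p = 0.114), and it passed only without CD VEH mouse A (-0.44, adjusted p = 0.0471). Abhd12 (ENSMUSG00000032046.15, chr2:150832493-150904741, - strand), known as a lipase of lysophosphatidylserine as well as of 2-AG, was the steadiest member. Its group means were 29.3 to 30.5 CPM, its groups overlapped in every comparison, and the 95% intervals of its differences in the 5 comparisons lay within -0.16 and 0.22 on the log2 scale.

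The share of Mgll among the 3 hydrolases of 2-AG was high in the groups where Mgll was high. In CPM per kb of exon, Mgll made up 61.6% and 65.2% of their sum in WT VEH, 69.98% to 73.3% in WT JZL184, 68.6% to 70.3% in CD VEH and 61.0% to 66.5% in CD JZL184. The summed level per kb of the 3 hydrolases was 20.97 and 23.9 times that of the 2 diacylglycerol lipases in WT VEH, and 32.2 to 34.4 times in WT JZL184. It was 28.7 to 34.7 times in CD VEH and 22.8 to 26.2 times in CD JZL184. As for Mgll alone, WT JZL184 and CD VEH mice were above all others in both measures. Mgll is the largest part of the sum, so both measures largely restate its level and are not separate results. With the longest transcript in place of all exons, the ratio to the diacylglycerol lipases was 18.1 to 28.7 over all mice.

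**Figure D3:**
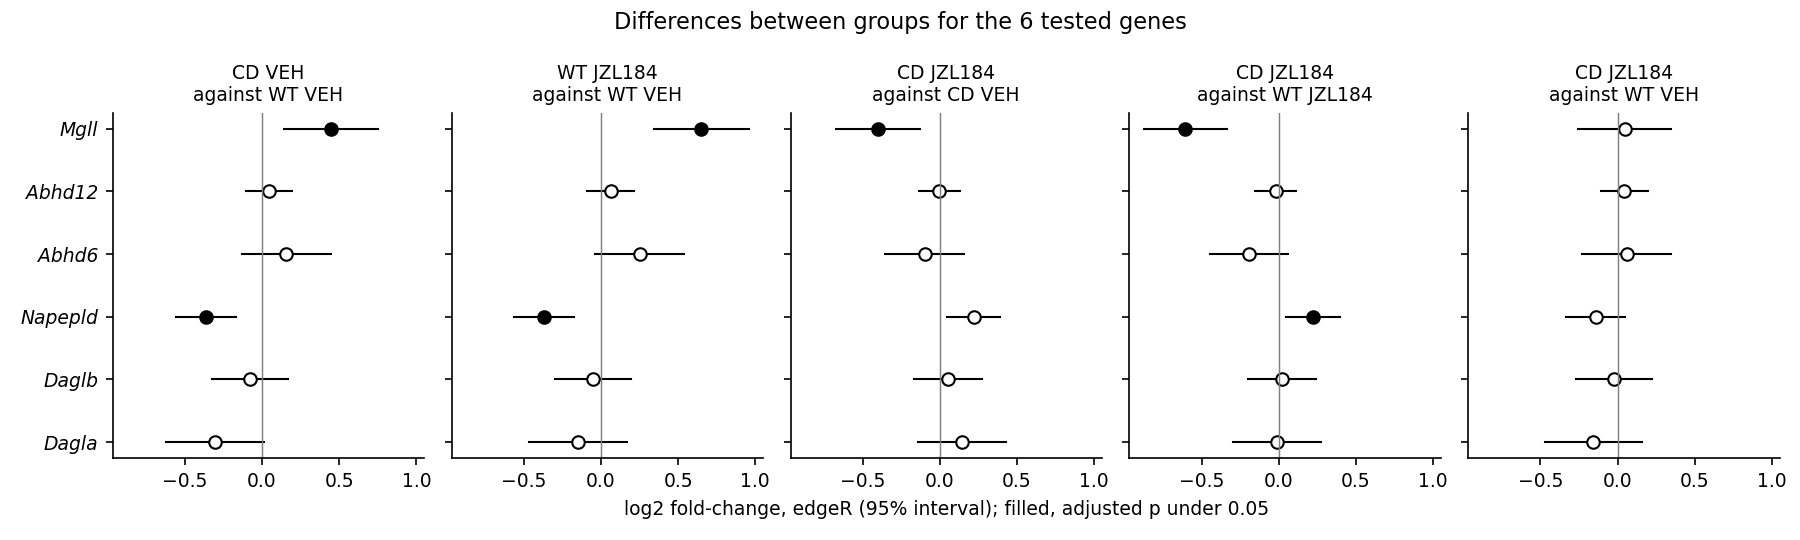
Log2 fold-change of the 6 tested genes (horizontal axes) in 5 comparisons of groups, with 95% intervals from edgeR; filled points have an adjusted p under 0.05. Mgll and Napepld lie on opposite sides of 0 in the first 4 comparisons, and no point is filled for CD JZL184 against WT VEH.

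Of the 9 members, 6 passed the filter on low levels (an average log2 CPM of at least 1), and their counts of calls are read against those of all 11319 genes tested. Among these 6, 1 member was higher and 1 lower in CD VEH against WT VEH, where 30.4% of all tested genes passed. In WT JZL184 against WT VEH the count was again 1 higher and 1 lower, beside 29.4% of all tested genes. A single member was lower in CD JZL184 against CD VEH, beside 33.9%, and in CD JZL184 against WT JZL184, 1 was higher and 1 lower, beside 38.3%. For the difference of the JZL184 response between genotypes, 1 member was positive and 1 negative, beside 51.5% of all tested genes. With 6 genes, these counts are near those that the background gives. The comparison of CD JZL184 with WT VEH had 0 of 6 past the threshold in edgeR, beside 0.186% of all tested genes, with 0 of 6 at an unadjusted p under 0.05 (9.36% of all tested genes) and 0 of 6 in DESeq2 (0.919%). Every group serves in more than 1 of these comparisons, which are therefore not independent.

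Faah and both receptor genes were under the filter and were compared by two-sided exact permutation tests of log2 CPM, which cannot go below p = 0.2 for 2 against 3 mice or p = 0.1 for 3 against 3. Faah (ENSMUSG00000034171.13, chr4:115967145-116017926, - strand) had 13 and 22 counts in WT VEH, 11, 11 and 23 in WT JZL184, 13, 14 and 16 in CD VEH and 25, 26 and 31 in CD JZL184. These are 0.162 and 0.315 CPM in WT VEH, 0.143 to 0.262 CPM in WT JZL184, 0.156 to 0.197 CPM in CD VEH and 0.293 to 0.318 CPM in CD JZL184. The CD JZL184 mice did not overlap the CD VEH mice (54.7% of tested genes did not overlap in that comparison) or the WT JZL184 mice (48.0%). Both differences had an exact p = 0.1, the smallest the permutation test can give, at 0.74 and 0.68 on the log2 scale of CPM with a prior count of 2. In edgeR without the filter, Faah in CD JZL184 came to 0.81 ± 0.34 against CD VEH (adjusted p = 0.116) and to 0.69 ± 0.34 against WT JZL184 (adjusted p = 0.169). The difference of its JZL184 response between CD and WT mice was 1.13 ± 0.52 in the same fit (adjusted p = 0.114).

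Cnr2 (ENSMUSG00000062585.11, chr4:135895394-135920207, + strand), the cannabinoid receptor known from immune cells, had 54 and 55 counts in WT VEH, 53, 103 and 111 in WT JZL184, 48, 56 and 76 in CD VEH and 56, 59 and 78 in CD JZL184. In CPM, 2 of the 3 WT JZL184 mice (1.17 and 1.54) were above all other mice, which lay between 0.564 and 0.914, and the third was at 0.691. The exact p was 0.4 for WT JZL184 against WT VEH and 0.2 for CD JZL184 against WT JZL184. In edgeR without the filter these differences were 0.64 ± 0.30 (adjusted p = 0.165) and -0.67 ± 0.26 (adjusted p = 0.0786).

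Cnr1 (ENSMUSG00000044288.6, chr4:33924593-33948831, + strand), the receptor CB1R that dominates in the brain, was at the limit of detection. It had 1 count in each WT VEH mouse, 0, 1 and 2 in WT JZL184, 0, 2 and 2 in CD VEH and 2, 3 and 4 in CD JZL184, which is 18 counts in 11 mice. The summed counts were 9 in CD JZL184, or 0.0334 CPM (95% Poisson interval 0.0153 to 0.0633), and 4 in CD VEH, or 0.016 CPM (0.00437 to 0.041). The summed counts of WT JZL184 were 3, or 0.0127 CPM (0.00262 to 0.0371), and those of WT VEH were 2, or 0.0133 CPM (0.00161 to 0.0481). These intervals overlap and cover counting error only. The exact p was 0.2 for CD JZL184 against WT VEH, the smallest possible, where the mice did not overlap (36.4% of tested genes did not), and at least 0.2 for all other pairs. A difference in Cnr1 was not detectable at this depth. Of the 15 exact tests over Faah, Cnr1 and Cnr2, 0 had a p under 0.05, and edgeR without the filter gave 3 with an unadjusted and 0 with an adjusted p under 0.05.

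**Figure D4:**
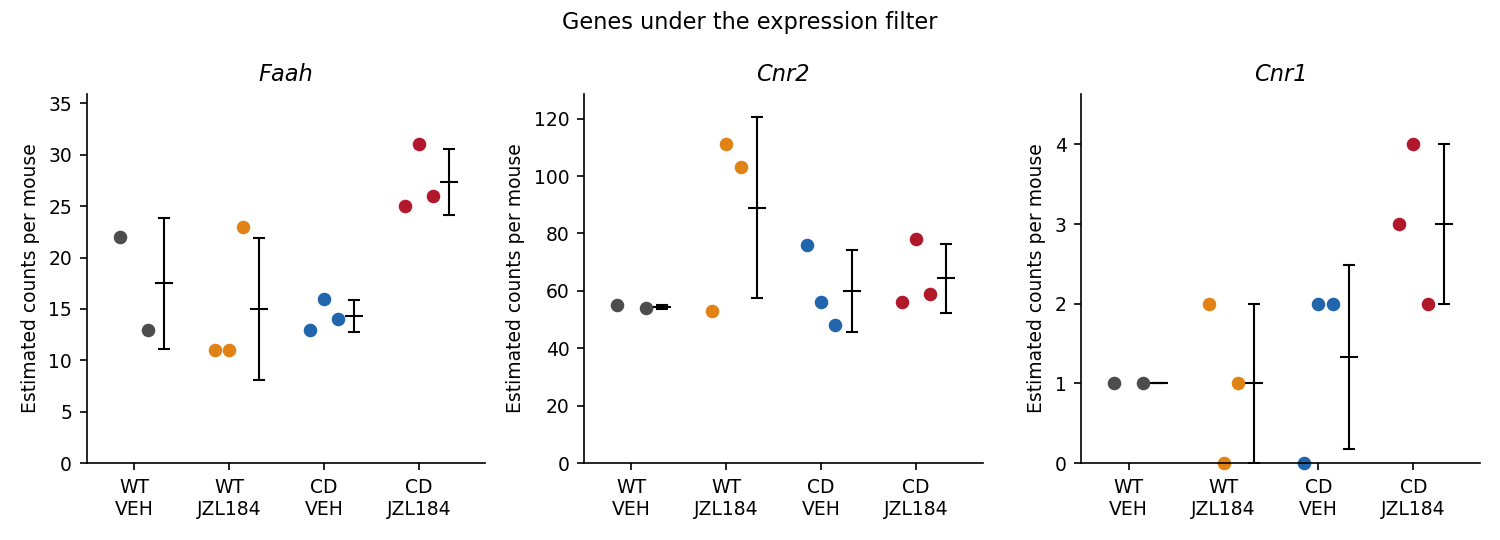
Estimated counts per mouse (vertical axes, from 0) of the 3 genes under the filter, with the mean and SD of each group. Faah has 25 to 31 counts in CD JZL184 and 11 to 23 elsewhere, Cnr2 has 103 and 111 counts in 2 WT JZL184 mice, and Cnr1 has 0 to 4 counts in any mouse.

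Summed levels of vessel and stromal marker lists were higher where Mgll was higher, and the cardiomyocyte sum was higher where Napepld was higher. Several genes of these lists did not pass, and abundant genes weigh most in the sums. Dcn, at 353 to 629 CPM, was most of the fibroblast sum, and Myh6, at 8163 to 16050 CPM, was the largest part of the cardiomyocyte sum. The 4 endothelial markers (Pecam1, Cdh5, Kdr and Tie1) summed to 454 to 466 CPM in WT VEH, 698 to 709 CPM in WT JZL184, 582 to 635 CPM in CD VEH and 454 to 536 CPM in CD JZL184. All 4 passed as higher in WT JZL184 than in WT VEH, and 3 of 4 passed as higher in CD VEH than in WT VEH and as lower in CD JZL184 than in CD VEH. The macrophage markers (Csf1r, Adgre1, Cd68 and C1qa) summed to 73.8 to 79.4, 95.8 to 154, 102 to 125 and 69.0 to 79.1 CPM in the same order of groups, and all 4 passed in those 3 comparisons with the same directions. The fibroblast markers (Pdgfra, Col1a1, Dcn and Tcf21) summed to 458 to 477, 610 to 730, 563 to 635 and 437 to 476 CPM, of which 2, 3 and 2 of 4 passed in CD VEH against WT VEH, WT JZL184 against WT VEH and CD JZL184 against CD VEH. The sums of the endothelial, macrophage and fibroblast lists were thus high in the groups where Mgll was high. The smooth muscle markers (Myh11, Acta2, Tagln and Cnn1) were at 77.7 to 89.8, 118 to 159, 90.9 to 100 and 57.6 to 74.1 CPM, with 2 of 3 tested passing in each of those comparisons. The cardiomyocyte markers went the other way, at 27361 to 28388, 17902 to 25063, 21788 to 24904 and 26935 to 28857 CPM, with 2, 3 and 3 of 5 passing. The red blood cell genes (Hba-a1, Hbb-bs and Alas2) summed to 1264 to 1547 CPM in WT VEH, 1611 to 3297 CPM in the WT mice with JZL184, 1258 to 11777 CPM in CD VEH and 886 to 1342 CPM in the CD mice with JZL184. All 3 passed as lower in CD JZL184 than in CD VEH and as negative in the difference of responses, as Mgll did, and 0 of 3 passed in the other comparisons. In CD VEH, mouse A stood apart at 11777 CPM, whereas mice C and E were at 1731 and 1258 CPM, the last within the range of CD JZL184. The share of mitochondrially encoded genes also followed Mgll, with 45.0% to 46.6% in the WT JZL184 mice and 43.5% to 44.7% in the CD VEH mice, against 39.4% and 41.2% in the WT VEH mice and 36.4% to 40.1% in the CD JZL184 mice. With these genes left out of the libraries, the calls of Mgll and Napepld in all comparisons were as before. The part of these cell types in the differences of Mgll and Napepld was not tested.

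**Figure D5:**
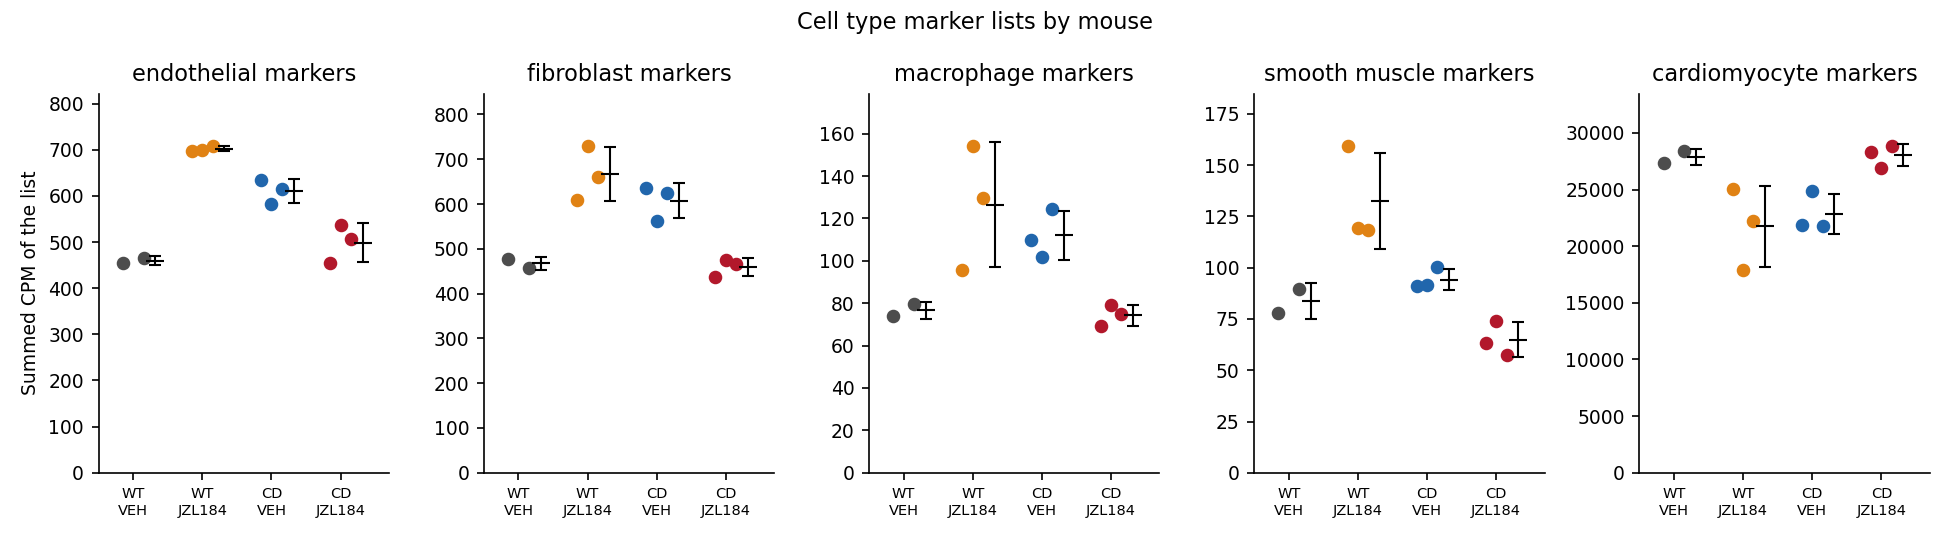
Summed CPM of 5 cell type marker lists (vertical axes, from 0) in each mouse (points), with the mean and SD of each group. The endothelial, fibroblast and macrophage sums are higher in every WT JZL184 and CD VEH mouse than in any WT VEH or CD JZL184 mouse, and the cardiomyocyte sum is lower in them.

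Markers of other cells that use these genes were also measured. Adipocytes are a major site of monoacylglycerol lipase, and their markers (Adipoq, Plin1, Cidec and Cfd) summed to 0.125 to 2.08 CPM, with 0 of 4 above the filter and Adipoq at 0.013 to 0.295 CPM. Of the brown adipocyte genes, Ucp1 was at 0 to 0.192 CPM, whereas Cidea passed the filter at 15.2 to 18.4 CPM. B cells carry CB2R, and of their genes Cd79a was at 0.293 to 1.10 CPM and Ms4a1 at 0.308 to 0.846 CPM over the 11 mice. Neurons carry CB1R, and their markers (Snap25, Syn1 and Rbfox3) summed to 0.495 to 0.784 CPM in CD JZL184, where Cnr1 had most counts, and to 0.217 to 0.429 CPM in the other groups. The part of B cells and neurons in the values of Cnr2 and Cnr1 was not tested.

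Genes around the core pathway were taken as a wider list of 46 genes, of which 37 were tested. They take in the phospholipases C that supply diacylglycerol, other routes to N-acylethanolamines, further hydrolases and oxygenases, lipid carriers, further receptors, and partners of CB1R with the Gi/o proteins. In CD VEH against WT VEH, 10 were higher and 6 lower (15.0% and 15.4% of all tested genes), with a median log2 fold-change of 0.16 against 0.0089 over all genes. In WT JZL184 against WT VEH, 8 were higher and 3 lower (15.4% and 14.0%), with a median of 0.11 against -0.0026 over all genes. For CD JZL184 against CD VEH, 6 were higher and 6 lower (16.8% and 17.0%), with a median of -0.0044. For CD JZL184 against WT JZL184, 9 were higher and 10 lower (18.2% and 20.1%), and the median was -0.032. Between CD JZL184 and WT VEH, 0 of 37 passed in edgeR (0.186% of all tested genes), 4 had an unadjusted p under 0.05 (9.36%) and 1 passed in DESeq2 (0.919%). For the difference of the JZL184 response between genotypes, 10 were positive and 13 negative (25.3% and 26.2%).

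Lipid carriers and nuclear receptors were among the named genes of this list. Fabp4, a fatty acid binding protein of capillary endothelium and fat that can carry endocannabinoids, had group means of 263 ± 8.19 CPM in WT VEH (SD, n = 2), 499 ± 96.7 in WT JZL184 (n = 3), 449 ± 38.1 in CD VEH (n = 3) and 284 ± 22.3 in CD JZL184 (n = 3). It rose by 0.76 ± 0.14 on the log2 scale in CD VEH (edgeR adjusted p = 0.0045) and by 0.93 ± 0.14 in WT JZL184 (adjusted p = 0.00233), both against WT VEH, and fell by 0.66 in CD JZL184 against CD VEH (adjusted p = 0.00361). Fabp5, a carrier of anandamide, was also highest in WT JZL184 and CD VEH, with 24.5, 37.1, 43.4 and 25.9 CPM in the same order of groups. Ppara, a nuclear receptor for fatty acids and N-acylethanolamines that drives fatty acid oxidation, was lowest in those groups, with 34.3 ± 4.55, 18.2 ± 2.60, 23.3 ± 1.57 and 37.2 ± 2.79 CPM. It fell by 0.57 in CD VEH (edgeR adjusted p = 0.00658) and by 0.91 in WT JZL184 (adjusted p = 0.00128) against WT VEH, and rose by 0.67 ± 0.11 in CD JZL184 against CD VEH (adjusted p = 0.00235). Pparg, its relative known from fat and endothelium, had means of 7.17, 12.1, 10.3 and 7.76 CPM and was higher in WT JZL184 than in WT VEH (0.76 ± 0.11, edgeR adjusted p = 0.00232).

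The other named genes include routes to anandamide and further receptors. Pla2g4e, a calcium-dependent N-acyltransferase that makes the substrate of Napepld, had means of 4.82, 2.69, 2.84 and 3.97 CPM in the same order, and like Napepld it was lower in CD VEH (-0.77 ± 0.21, edgeR adjusted p = 0.0191) and in WT JZL184 (-0.83 ± 0.21, adjusted p = 0.0142) than in WT VEH. Cnrip1, which binds the tail of CB1R, had means of 2.08, 3.43, 3.41 and 2.25 CPM and was lower in CD JZL184 than in CD VEH (-0.61 ± 0.18, edgeR adjusted p = 0.0226). The cation channel Trpv2, which cannabidiol can open, was higher in WT JZL184 than in WT VEH (0.76 ± 0.16, edgeR adjusted p = 0.00705). The oxygenase Alox12 was higher in CD VEH than in WT VEH (0.80 ± 0.26, edgeR adjusted p = 0.0394).

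The remaining named genes are lipases and phospholipases C. Plcd3 was lower in CD VEH than in WT VEH (-0.48 ± 0.13, edgeR adjusted p = 0.0186) and higher in CD JZL184 than in CD VEH (0.38 ± 0.12, adjusted p = 0.0275), and Plce1 was higher in CD JZL184 than in CD VEH (0.32 ± 0.07, adjusted p = 0.00604). Abhd2, a monoacylglycerol lipase first described in sperm, and Plcg2 were higher in CD JZL184 than in WT JZL184 by 0.55 ± 0.10 (edgeR adjusted p = 0.00186) and 0.62 ± 0.11 (adjusted p = 0.00224). Ddhd2, a lipase of diacylglycerol, was lower in WT JZL184 than in WT VEH (-0.27 ± 0.09, edgeR adjusted p = 0.0347). The 9 genes under the filter were Plcb2, Ptpn22, Ptgs2, Alox15, Fabp7, Gpr55, Gpr18, Gpr119 and Trpv1. The proposed cannabinoid receptors Gpr55, Gpr18 and Gpr119 reached at most 0.0522, 0.148 and 0.0139 CPM, and the capsaicin receptor Trpv1, which anandamide can open, reached 0.0913 CPM.

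The genes whose pattern over the 11 mice was most like that of a member are given by Pearson's r of log2 CPM, as a description without a test. For Mgll they were Vsir, Chst11 and Ripply3, with r of 0.97, 0.97 and 0.96. For Napepld they were Six4, Cul3 and Ehbp1l1, with r of 0.98, 0.98 and 0.97. For Abhd6 they were Recql, Pced1a and Spon1 (0.95, 0.92 and 0.88) and for Abhd12 they were Bend5, Crtc2 and Unc119 (0.93, 0.91 and 0.90). For Daglb they were Tpcn1, Trim41 and Naa80 (0.92, 0.90 and 0.89), and for Dagla they were Lrp11, Pmepa1 and Thap1 (0.89, 0.86 and 0.85). All points of a gene pair share their libraries and groups, and these genes are the highest of the 11319 tested.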

How the data were processed

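Ventricle RNA of 11 mice was sequenced by the authors. They deposited a table of estimated counts, not normalized, with genes in rows and mice in columns, made with Salmon 0.7.2 on Ensembl release 85 (GRCm38) and tximport 1.2.0. The strand setting is not given in the sources used here. Column names give a mouse's group and a letter absent from the labels, and the number of columns without a group was 0. The members and gene lists were chosen with earlier results of these data known, and some marker genes are not reported here.

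Rounded counts went into edgeR 4.0.16 (R 4.3.3, limma 3.58.1) with TMM factors and all 4 groups in a single model. An average log2 CPM of 1 or more was required and p-values were adjusted by Benjamini-Hochberg over these 11319 genes, with a threshold of 0.05. The common biological coefficient of variation was 9.13%. Names, positions and lengths came from GENCODE mouse release 21, which matched 22315 of 22608 genes. In the other pathway list, the genes named are the 3 with the highest and the 3 with the lowest log2 fold-change of those that passed in each comparison, and for each tested member the 3 genes with the highest Pearson's r. Log2 CPM values had a prior count of 2. Poisson intervals (95%) and the floor of 3 counts cover counting error only. The alternatives were DESeq2 1.42.0, RLE and upper quartile factors, no filter, at least 10 counts in every mouse, no mitochondrial genes, a length offset (loess, span 0.5), only the compared groups, the longest transcript, a prior count of 0.5 and leaving out each mouse. The steps were tested on simulated counts.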

Additional observations from a re-analysis of the deposited data

Results flagged for a closer look

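The difference between the JZL184 responses (CD minus WT, log2 scale) passed edgeR's interaction test for 2 of the 6 tested members. In the wider list, 10 genes were positive and 13 negative of 37 tested, beside 51.5% of all tested genes in either direction. The 11 of these described here were named for large changes, in part in this same difference, so their number shows nothing about the list. Among the 9 enzymes and receptors, the difference was -1.05 ± 0.19 (SE) for Mgll (adjusted p = 0.000927), from 0.65 in WT and -0.40 in CD mice. It was 0.59 ± 0.12 for Napepld (adjusted p = 0.00199), from -0.37 in WT and 0.22 in CD mice. In the wider list it was -1.60 ± 0.19 for Fabp4, -1.36 ± 0.25 for Fabp5, -1.33 ± 0.27 for Cnrip1, -1.18 ± 0.15 for Pparg and -1.06 ± 0.21 for Trpv2, whose values were higher with JZL184 in WT and lower in CD mice. It was 1.58 ± 0.16 for Ppara, 1.31 ± 0.28 for Pla2g4e, 0.69 ± 0.17 for Plcd3, 0.51 ± 0.17 for Plcg2, 0.51 ± 0.10 for Plce1 and 0.49 ± 0.11 for Ddhd2, which had the opposite signs. These 11 had adjusted p between 9.05e-05 and 0.0247 in the same test. Within a single genotype not all of them passed. In CD mice, Trpv2 (-0.30, edgeR adjusted p = 0.101), Pla2g4e and Plcg2 did not pass, and in WT mice, Plcd3, Plcg2 and Plce1 did not pass. Single mice that stand apart were not tested for in these groups of 2 and 3.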

How the results depend on the processing

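Over the 6 tested enzymes, 451 of the values recomputed under an alternative kept their direction and their side of the threshold, 24 lost a call, 3 gained one and 32 changed sign. Sign changes were found only for differences that did not pass the test, and their cause was not tested. The number of enzymes past the threshold in CD JZL184 against WT JZL184 was 1 in place of 2 with DESeq2, upper quartile factors, no filter or only the compared groups. In CD JZL184 against CD VEH it was 2 in place of 1 with RLE factors or a length offset (Napepld, 0.22 with adjusted p = 0.0493 and 0.26 with adjusted p = 0.0388). For WT JZL184 against WT VEH it was 1 in place of 2 with only the compared groups, where Napepld was at -0.35 with adjusted p = 0.075. In the wider list, only the compared groups gave 20 in place of 12 genes for CD JZL184 against CD VEH, 6 in place of 11 for WT JZL184 against WT VEH and 1 in place of 0 for CD JZL184 against WT VEH, and DESeq2 also gave 1 for the last.

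Leaving out each mouse gave 0 to 1 enzymes past the threshold for CD VEH against WT VEH, 0 to 1 for CD JZL184 against CD VEH, 0 to 2 for WT JZL184 against WT VEH, 1 to 2 for CD JZL184 against WT JZL184, 0 to 0 for CD JZL184 against WT VEH and 2 to 3 for the difference of responses. Without a WT VEH mouse, the lone mouse of that group is assumed to vary like the other groups. With a length offset, Daglb turned to 0.044 and Abhd12 to -0.057 in CD VEH against WT VEH, Daglb to -0.055, Abhd6 to 0.025 and Abhd12 to 0.092 in CD JZL184 against CD VEH, Daglb to 0.039 and Abhd12 to -0.032 in WT JZL184 against WT VEH, Daglb to -0.0497 and Abhd12 to 0.066 in CD JZL184 against WT JZL184, and Daglb to -0.094 and Abhd12 to 0.12 for the difference of responses. Abhd12 in CD JZL184 against CD VEH was 0.00052 with DESeq2, 0.00049 with RLE factors and 0.0043 with at least 10 counts. In CD JZL184 against WT JZL184, Daglb was -0.0033 with upper quartile factors, and Dagla was 0.0057 with no filter and 0.0035 with at least 10 counts. Cnr1 in CD VEH against WT VEH was -0.14 with a prior count of 0.5, and Cnr2 in CD JZL184 against CD VEH was -0.018 in edgeR without the filter.

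Over the fits that leave out a mouse, the values of results that changed sign lay between -0.080 and 0.12 for Dagla, -0.088 and 0.11 for Daglb and -0.080 and 0.034 for Abhd12 in CD JZL184 against WT JZL184. They lay between -0.13 and 0.065 for Daglb in WT JZL184 against WT VEH and between -0.0058 and 0.19 for Daglb in the difference of responses. For CD JZL184 against WT VEH the range was -0.092 to 0.20 for Mgll, -0.047 to 0.0063 for Daglb and -0.049 to 0.18 for Abhd6, and for CD JZL184 against CD VEH it was -0.19 to 0.039 for Abhd6 and -0.018 to 0.020 for Abhd12. No paired analysis was possible because the columns of the table carry no replicate number. The letter they carry is in no label, and it was not used as a block. With 2 to 3 mice per group and 0 to 31 counts of Cnr1 or Faah per mouse, small differences of low genes are beyond this depth.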
